A study of Mus musculus with 77 samples.

Results

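The response of wild-type (WT) mouse colon organoids to aldosterone was read from 12 RNA libraries, of 77 samples in the series. Organoids are cultures of intestinal epithelial cells grown as small hollow structures in a gel. Of the 12 libraries, 6 came from organoids kept for 2 h with 10 nM aldosterone and 6 from organoids kept for 2 h with vehicle. Per the labels, both groups had first spent 24 h in medium with charcoal-stripped serum, which removes most steroid hormones. Colon organoids labelled GRKO, for the glucocorticoid receptor (GR, gene Nr3c1), were treated in the same way (5 libraries with aldosterone and 5 with vehicle) and serve below to set the WT response against organoids with fewer Nr3c1 reads. The members of this account are all genes whose values vary between the 12 WT libraries, 20196 of the 25124 genes listed. The labels give no age, sex or number of animals, no number of organoid lines and no time of day, and nothing in them says that replicates were separate cultures. The p-values below therefore reflect how far these libraries scatter, which may be technical.

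Aldosterone is the adrenal steroid that controls sodium balance. It binds the mineralocorticoid receptor (MR, gene Nr3c2), a transcription factor that enters the nucleus when hormone is bound and acts on nearby genes, and at higher concentrations it also binds GR, which recognises the same DNA element. In the surface epithelium of the distal colon aldosterone is known to raise sodium absorption through the epithelial sodium channel (ENaC), made of the subunits encoded by Scnn1a, Scnn1b and Scnn1g, with the sodium pump on the other side of the cell. The kinase SGK1, encoded by an early MR target gene, keeps ENaC at the cell surface by restraining the ubiquitin ligase NEDD4-2 (gene Nedd4l).

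The libraries held 27.5 to 37.5 M reads (M, mega) with aldosterone and 28.3 to 34.2 M with vehicle, of which 21.4 to 30.2 M with aldosterone and 21.0 to 27.2 M with vehicle lay in exons of the listed genes. The deposited values could be turned back into whole reads, and a level is given below in normalised reads, that is, reads divided by the authors' scaling factor of the library. Where 3 values stand together, they are the lowest, the median and the highest of the 6 libraries of a group. Differences carry limma's standard error (SE) and are on the deposited log2 scale (a variance-stabilizing transformation, vst), which compresses weakly expressed genes, so the fold between mean normalised reads is given beside them. The ribosomal RNA precursor Rn45s took 13.8 to 14.7% of exon reads in 5 aldosterone libraries and 25.1% in aldosterone library 3, against 12 to 16.4% with vehicle. Collagen gene Col1a1 stood at 165 and 419 normalised reads in aldosterone libraries 4 and 6 and at no more than 18.8 in the other 10. The first principal component (46% of the variance) separated the 6 aldosterone from the 6 vehicle libraries, and on the second (21.9%) both libraries numbered 3 lay at one end and aldosterone library 4 at the other.

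Aldosterone raised 854 genes and lowered 476 of 20196 (limma, Benjamini-Hochberg adjusted p under 0.05), which is 4.23% and 2.36% of the genes tested and 6.59% in both directions together. Rises were also the larger changes: 252 genes rose at least 2-fold between mean normalised reads (1.25% of those tested) and 60 fell at least 2-fold (0.297%). Among the 11740 genes with a mean of at least 50 normalised reads, 726 rose (6.18%) and 416 fell (3.54%). Of them 38 rose at least 4-fold and 0 fell as far, and the median fold was 1.46 for those that rose and 0.756 for those that fell. With genes of fewer reads included, 90 rose and 17 fell at least 4-fold. In 617 of the genes that rose, every aldosterone library lay above every vehicle library, and in 274 of those that fell every aldosterone library lay below, where 3.29% and 1.52% of all genes tested had groups apart in these directions. The authors' deposited table gives 1015 genes higher and 630 lower at an adjusted p under 0.05 (5.03% and 3.12%), with 1293 genes called in both analyses and 0 of them in opposite directions. Without both libraries numbered 3 the counts were 848 and 481, and without aldosterone libraries 4 and 6 they were 832 and 416. The median difference over all genes tested was -0.0047.

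**Figure D1:**
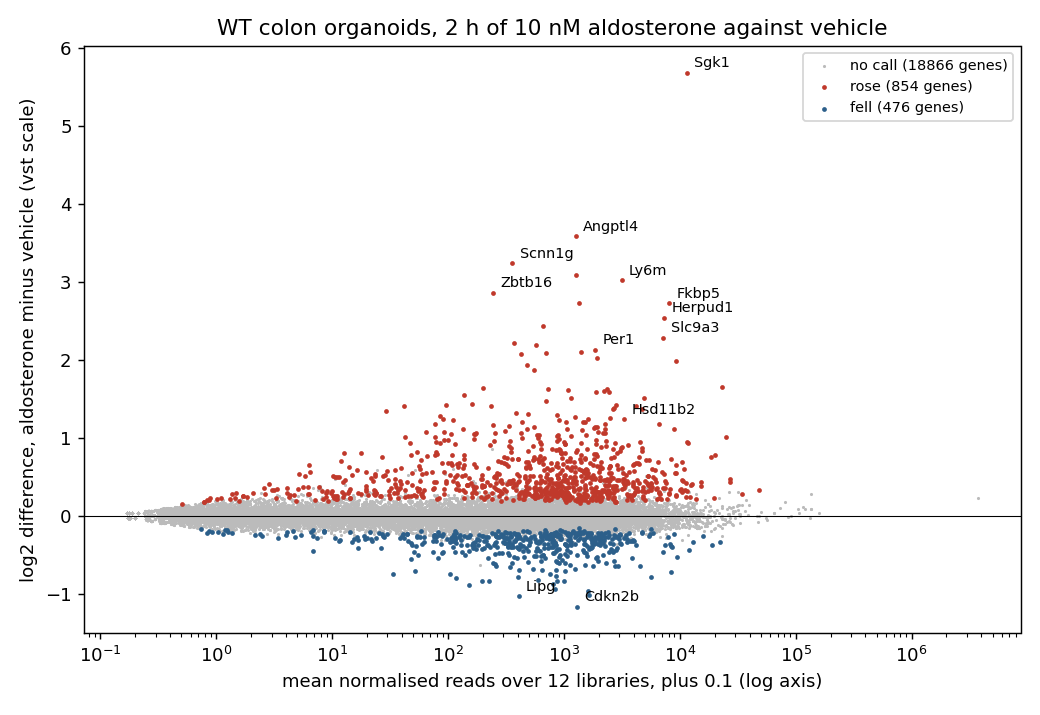
Log2 difference of each gene between aldosterone and vehicle (vertical axis, vst scale) against its mean normalised reads over the 12 WT libraries plus 0.1 (horizontal log axis), with 854 genes that rose in red, 476 that fell in blue and the rest in grey. Sgk1 stands apart at a difference of 5.68, and on this scale, which compresses weakly expressed genes, no gene fell by more than the -1.16 of Cdkn2b.

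Sgk1 (NM_011361, chromosome 10, 21994666 to 21999902, plus strand, mm10 build), the early MR target kinase named above, showed the largest difference. It held 19809, 23129.9 and 24753 normalised reads with aldosterone, against 253, 331 and 419 with vehicle. The lowest aldosterone library was thus far above the highest vehicle library, and the means differed 67.8-fold (difference 5.68 ± 0.076, adjusted p = 5.84e-19). At these levels Sgk1 moved into the range of abundant epithelial transcripts: with aldosterone its mean of 22852 normalised reads was close to the 23464 of Epcam, the epithelial adhesion molecule, whose vehicle mean was 24150.5 (Epcam difference -0.04 ± 0.059, adjusted p = 0.776). Both counts are reads per gene and not per length.

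MR and GR bind a palindrome of 2 mirrored sites 3 bases apart. It was searched as GNACA, then any 3 bases, then TGTNC, where N is any base, a pattern that is the same on both strands, in RefSeq promoters (GRCm38.p6, 250 bases before to 50 after each start site) with at least 1 entry for 1021 of the 1330 called genes. The motif occurred in promoters of 11 of 661 genes that rose (1.66%) and of 0 of 360 that fell, beside 72 of all 14971 tested genes with a promoter (0.481%). The shorter core of ACA, any 3 bases and TGT, which lies within it, occurred in 6.96% of genes that rose, 4.72% of those that fell and 5.96% of those tested. Among tested genes with a mean of at least 50 normalised reads, 32 of 9291 held the full motif (0.344%). A gene counted if any of its listed promoters matched. On average genes that rose had 1.38 promoters, those that fell 1.36 and those tested 1.24. The motif counts describe letters in a window, and no test was made of them. The promoters below are those of Sgk1, Map3k6, Fam107a and Txnip, the 4 largest rises among these 11 on the log2 scale (Map3k6 and Fam107a fall outside the rule for named genes and were chosen after their values were seen), 5′ to 3′ on the strand of the gene, with the motif in capitals.
Sgk1: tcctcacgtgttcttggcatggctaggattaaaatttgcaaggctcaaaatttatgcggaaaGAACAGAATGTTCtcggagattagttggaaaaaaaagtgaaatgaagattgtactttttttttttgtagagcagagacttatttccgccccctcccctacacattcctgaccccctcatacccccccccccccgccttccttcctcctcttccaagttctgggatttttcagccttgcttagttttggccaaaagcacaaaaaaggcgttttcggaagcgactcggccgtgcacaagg
Map3k6: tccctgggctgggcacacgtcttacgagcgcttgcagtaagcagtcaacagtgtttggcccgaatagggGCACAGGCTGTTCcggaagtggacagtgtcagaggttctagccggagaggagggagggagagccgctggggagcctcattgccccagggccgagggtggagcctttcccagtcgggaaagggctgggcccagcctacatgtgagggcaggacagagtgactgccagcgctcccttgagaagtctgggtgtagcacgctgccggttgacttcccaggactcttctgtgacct
Fam107a: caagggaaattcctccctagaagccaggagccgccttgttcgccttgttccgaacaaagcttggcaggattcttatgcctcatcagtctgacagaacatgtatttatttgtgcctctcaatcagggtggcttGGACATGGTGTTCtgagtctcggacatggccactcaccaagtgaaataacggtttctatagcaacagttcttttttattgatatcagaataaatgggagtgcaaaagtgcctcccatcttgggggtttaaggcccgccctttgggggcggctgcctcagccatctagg
Txnip: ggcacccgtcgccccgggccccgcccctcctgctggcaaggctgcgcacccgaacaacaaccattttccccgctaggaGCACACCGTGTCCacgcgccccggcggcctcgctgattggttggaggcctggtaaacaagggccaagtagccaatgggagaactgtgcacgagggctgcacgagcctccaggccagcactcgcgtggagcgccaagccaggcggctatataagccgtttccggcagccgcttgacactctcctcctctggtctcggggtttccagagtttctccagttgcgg
They lie at chr10:21993640-21993939 and chr4:133240568-133240867 on the plus strand, chr14:8309730-8310029 on the minus strand and chr3:96557707-96558006 on the plus strand. The Sgk1 sequence is 1 of 6 promoters listed for this gene, and the motif starts 188 bases before that start site. For Fam107a 2 of 3 listed promoters, nearly the same sequence, hold the motif. Txnip, an inhibitor of glucose uptake and thioredoxin, held 30075, 32713 and 37972 normalised reads with aldosterone, against 15008, 16395 and 18698 with vehicle, so that the groups did not overlap (2.02-fold, difference 1.01 ± 0.07, adjusted p = 9.9e-09). Map3k6, a stress-activated kinase of the MAP kinase pathway, averaged 1162 normalised reads with aldosterone and 301 with vehicle (difference 1.63 ± 0.065, adjusted p = 4.66e-12).

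Behind Sgk1, the largest rises included genes of lipid handling, ion transport and transcription. Angptl4 (NM_020581, chromosome 17, 33774900 to 33781575, minus strand), a secreted inhibitor of lipoprotein lipase, held 2036, 2529 and 2787 normalised reads with aldosterone, against 89.8, 111 and 121 with vehicle (22.6-fold, difference 3.59 ± 0.075, adjusted p = 5.36e-16). Zbtb16, a zinc finger repressor long known as a glucocorticoid-induced gene, held 408, 456 and 712 with aldosterone and 2.71, 5.4 and 10.7 with vehicle (84.4-fold, difference 2.86 ± 0.1, adjusted p = 7.45e-13). In both genes all aldosterone libraries lay above all vehicle libraries. Fkbp5, a chaperone partner that restrains steroid receptors, was already well expressed without hormone. It held 13300.2, 13936 and 15427 with aldosterone, against 1822, 2083 and 2168 with vehicle (6.92-fold, difference 2.72 ± 0.058, adjusted p = 5.36e-16). Depp1, a FOXO-regulated gene linked to autophagy, differed 12.9-fold (3.08 ± 0.11, adjusted p = 1.68e-12). Ly6m, a member of the Ly6 family of surface proteins, differed 9.52-fold (3.02 ± 0.12, adjusted p = 4.13e-12), and Fam43a 8.89-fold (2.72 ± 0.11, adjusted p = 9.63e-12). Among the 12 genes with the largest rises the fold between means ran from 5.05 for Slc9a3 to 89.1 for Scnn1g, both described with the transport genes. Herpud1, a component of endoplasmic reticulum protein degradation, held 11268, 12944 and 13428 normalised reads with aldosterone, against 1835, 2008 and 2555 with vehicle (6.07-fold, difference 2.54 ± 0.074, adjusted p = 9.73e-14). Hif3a, a hypoxia-inducible factor subunit, varied more, with 899, 1081 and 1595 normalised reads with aldosterone, against 56.4, 137 and 267 with vehicle (difference 2.43 ± 0.18, adjusted p = 2.54e-08). Tmem37, which encodes a calcium channel subunit-like protein, differed 9.93-fold (2.22 ± 0.11, adjusted p = 9.19e-11). Icosl, the ligand of the T cell costimulator ICOS, was among the 6 smallest adjusted p-values with 1065, 1189 and 1368 normalised reads with aldosterone, against 185, 199 and 229 with vehicle (difference 2.09 ± 0.062, adjusted p = 1.09e-13).

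**Figure D2:**
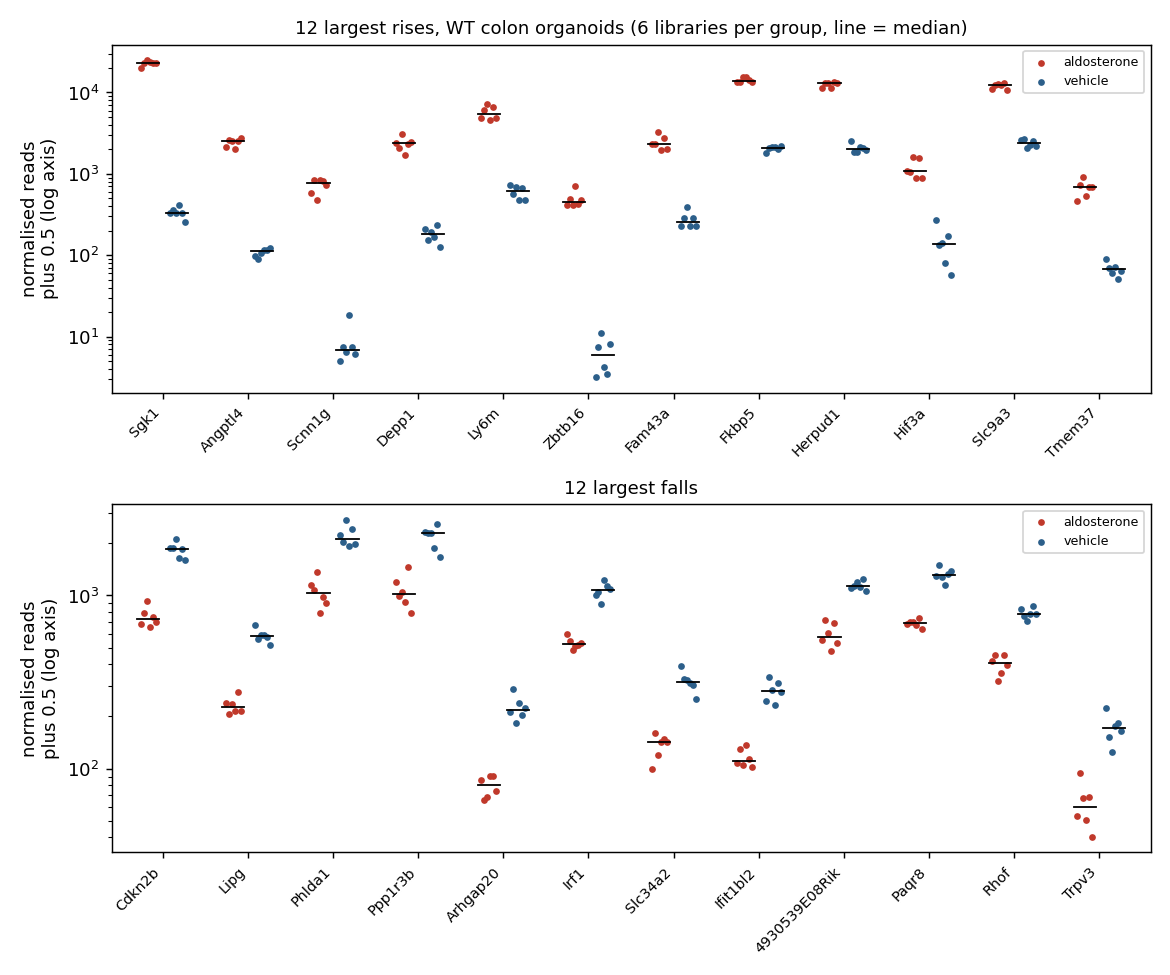
Normalised reads plus 0.5 (vertical log axis) of the 12 genes with the largest rises (upper panel) and the 12 with the largest falls (lower panel), 1 point per library, aldosterone in red at the left and vehicle in blue at the right of each gene, line at the median. The groups do not overlap in any of the 24 genes, by the rule that chose them; with vehicle, Scnn1g and Zbtb16 lie between 2.71 and 17.8 normalised reads.

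The 12 largest falls on the deposited log2 scale were smaller in size. Cdkn2b (NM_007670, chromosome 4, 89306289 to 89311032, minus strand), which encodes the cell cycle inhibitor p15, held 654, 726 and 926 normalised reads with aldosterone, against 1596, 1862 and 2126 with vehicle (0.411 times the vehicle mean, difference -1.16 ± 0.078, adjusted p = 5.76e-09). Lipg, endothelial lipase, held 205, 226 and 278 with aldosterone, against 517, 581 and 671 with vehicle (0.396 times, difference -1.03 ± 0.066, adjusted p = 3.4e-09). All aldosterone libraries of both genes lay below all vehicle libraries. Phlda1, a target of growth factor signalling, was at 0.47 times the vehicle mean (difference -1.02 ± 0.1, adjusted p = 1.55e-06). Ppp1r3b, which targets a phosphatase to glycogen, was at 0.491 times (difference -0.96 ± 0.12, adjusted p = 1.52e-05). Arhgap20, a GTPase activating protein, was at 0.351 times (-0.89 ± 0.077, adjusted p = 1.71e-07), and Irf1, an interferon-regulated transcription factor, at 0.496 times (-0.87 ± 0.068, adjusted p = 4.37e-08). Of the transporters and channels, Slc34a2, a sodium phosphate cotransporter, held 99.1, 142 and 159.8 normalised reads with aldosterone, against 251, 317 and 393 with vehicle (difference -0.84 ± 0.083, adjusted p = 1.03e-06). Trpv3, a cation channel, held 40, 59.8 and 94.4 with aldosterone, against 124, 170.0 and 224 with vehicle (difference -0.80 ± 0.096, adjusted p = 1.38e-05). The other members of the 12 were Ifit1bl2 (-0.83), 4930539E08Rik (-0.83), Paqr8 (-0.83) and Rhof (-0.82), and Tsc22d1 (-0.79) and Themis3 (-0.75) were added by their small adjusted p-values (1.73e-08 and 1.73e-08). The lists used from here on describe known biology, and their counts are set beside the 4.23% and 2.36% of all genes tested. Some lists share genes, such as Ddit4, Sesn1 and Cdkn1a, so their counts are not separate from each other.

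The ENaC subunits differed among themselves. Scnn1g (NM_011326, chromosome 7, 121734479 to 121768482, plus strand), the gamma subunit, held 475, 771 and 832 normalised reads with aldosterone, against 4.52, 6.4 and 17.8 with vehicle (89.1-fold between means, difference 3.24 ± 0.11, adjusted p = 4.99e-13). Scnn1b, the beta subunit, held 22, 34.7 and 43.8 with aldosterone, against 4.9, 9.17 and 16 with vehicle (3.51-fold, difference 0.48 ± 0.071, adjusted p = 0.000138). Scnn1a, the alpha subunit, held 1229.6, 1427 and 1622 with aldosterone, against 1262, 1406 and 1609.9 with vehicle, with overlapping groups and a difference of -0.0022 ± 0.075 (adjusted p = 0.996). Per kilobase of exon, alpha stood at 407, gamma at 238 and beta at 11.8 normalised reads with aldosterone, against 407, 2.67 and 3.37 with vehicle. On this per-length scale gamma lay between alpha and beta with aldosterone. With vehicle, gamma and beta were both low and their library values overlapped, so their order there is not settled. Of 27 tested genes of the list of ENaC and its regulators, 5 rose (18.5%) and 0 fell, and the list's median difference was -0.0022. The 5 were Sgk1, Scnn1g, Scnn1b, Usp2 and the channel-activating protease gene Tmprss2 (1.2-fold, difference 0.26 ± 0.056, adjusted p = 0.00676). Usp2, a deubiquitinase that removes ubiquitin from ENaC, held 294, 364 and 476 normalised reads with aldosterone, against 96, 113 and 129 with vehicle (3.33-fold, difference 1.16 ± 0.089, adjusted p = 3.81e-08). Nedd4l, the ubiquitin ligase that removes ENaC from the membrane, held 1718, 1856 and 2035 with aldosterone, against 2001, 2109.8 and 2272 with vehicle and did not pass the test (difference -0.18 ± 0.054, adjusted p = 0.0623). In the authors' deposited table Nedd4l had an adjusted p of 0.02, and by limma voom on the recovered reads the adjusted p was 0.0463, so this call depends on the method.

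Of 16 tested genes of the sodium and proton-potassium pumps, 2 rose (12.5%) and 0 fell (median 0.030). Atp1b1, a beta subunit of the sodium pump, held 29879.5, 30397 and 33985 normalised reads with aldosterone, against 21081, 23442 and 24784 with vehicle (1.35-fold, difference 0.43 ± 0.06, adjusted p = 7.87e-05). The groups did not overlap. Fxyd4, a pump regulator known as the corticosteroid hormone-induced factor, held 29.5, 58.6 and 91.9 with aldosterone, against 21.6, 39.6 and 62.9 with vehicle, with overlapping groups (difference 0.26 ± 0.11, adjusted p = 0.216).

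**Figure D3:**
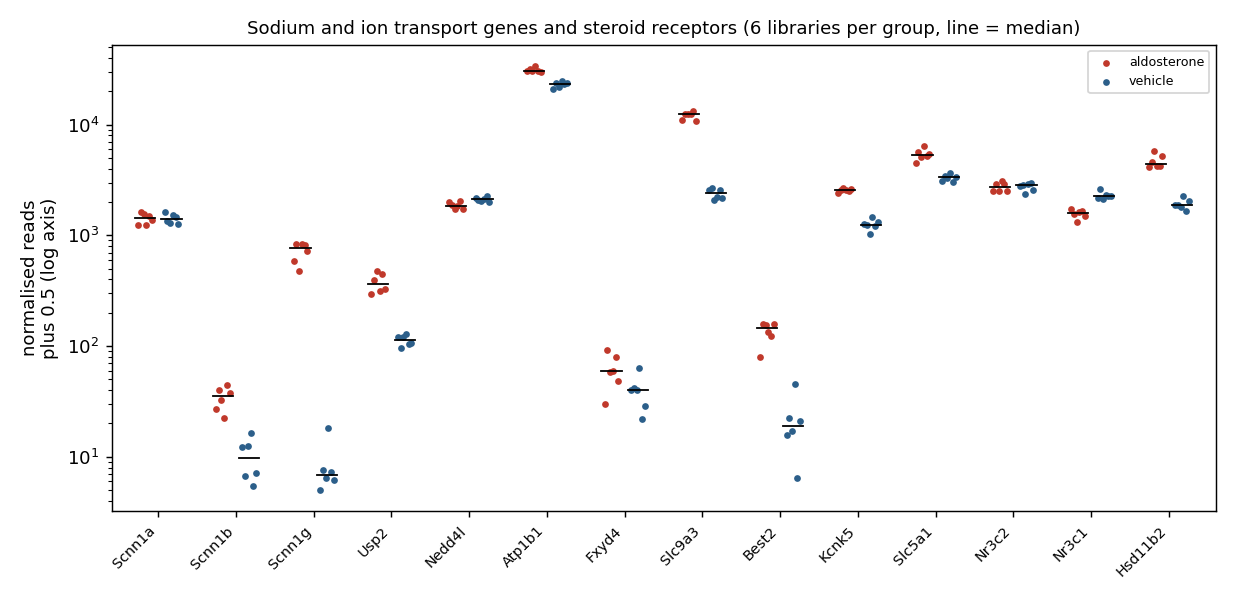
Normalised reads plus 0.5 (vertical log axis) of sodium, chloride, potassium and glucose transport genes and of steroid receptor genes, 1 point per WT library, aldosterone in red at the left and vehicle in blue at the right of each gene, line at the median. Scnn1g, Usp2, Slc9a3 and Best2 have groups apart, and Scnn1a, Nedd4l, Fxyd4 and Nr3c2 have groups that overlap.

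Electroneutral sodium uptake was represented by Slc9a3 (NM_001081060, chromosome 13, 74121413 to 74169441, plus strand), the apical sodium-hydrogen exchanger NHE3. It held 10773, 12419.8 and 13220.3 normalised reads with aldosterone, against 2090.3, 2392 and 2699 with vehicle, with no overlap (5.05-fold, difference 2.28 ± 0.071, adjusted p = 2.11e-13). In its list of exchangers and cation-chloride cotransporters 3 of 20 genes rose (15%) and 0 fell (median 0.084). The second was Slc9a2, the exchanger NHE2 (5160.0, 5861 and 6849 with aldosterone, against 4076, 4753 and 5208 with vehicle, difference 0.31 ± 0.074, adjusted p = 0.0114). The third was Slc12a3, the thiazide-sensitive cotransporter best known from the kidney, with 9.42 to 16.1 normalised reads (median 12.2) in every aldosterone library and 0 reads in every vehicle library. Set against a floor of 3 reads over the vehicle group, its mean was at least 26.0-fold higher (difference 0.64 ± 0.044, adjusted p = 7.53e-09). Both levels are low, and the floor covers counting error alone.

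Among 26 genes of chloride and bicarbonate transport 5 rose (19.2%) and 0 fell (median 0.040). Best2, a bestrophin channel that carries bicarbonate in the colon, held 79.1, 144 and 159 normalised reads with aldosterone, against 5.88, 18.7 and 45.1 with vehicle (6.44-fold, difference 1.17 ± 0.11, adjusted p = 7.96e-07). Ano9, of the anoctamin family, differed 1.56-fold (0.59 ± 0.06, adjusted p = 1.72e-06), and Clca4b, a secreted regulator of chloride conductance, 1.4-fold (0.46 ± 0.076, adjusted p = 0.000474). Of 20 potassium channel genes 2 rose and 1 fell (10.0% and 5.00%, median -0.0059). Kcnk5, a potassium leak channel of epithelia, held 2403, 2560.1 and 2693 with aldosterone, against 1027, 1251 and 1468 with vehicle (difference 0.97 ± 0.064, adjusted p = 5.46e-09), Kcnk1 differed 1.61-fold (0.64 ± 0.1, adjusted p = 0.000264), and Kcne3, the partner of the basolateral channel KCNQ1, fell by 0.24 ± 0.057 (adjusted p = 0.0139). Of 16 channels for water and small solutes 2 rose and 2 fell. The falls, Aqp8 and Slc5a8, lost the call without some single libraries (adjusted p up to 0.0993 without WT aldosterone replicate 6 and 0.0995 without WT vehicle replicate 2). Slc5a1, the sodium-glucose cotransporter SGLT1, held 4527, 5315 and 6388 with aldosterone, against 3036, 3339 and 3625 with vehicle (difference 0.68 ± 0.071, adjusted p = 2.22e-06), and Aqp1, a water channel, differed 1.53-fold (0.48 ± 0.08, adjusted p = 0.000503). Tight junction genes gave 1 rise and 2 falls among 17 (median -0.028), and the rise was Cgn, cingulin (1.23-fold, 0.30 ± 0.061, adjusted p = 0.00373). The falls, Cldn12 and F11r, each lost the call without some single libraries, with adjusted p up to 0.0672 (without WT vehicle replicate 6) and 0.102 (without WT aldosterone replicate 6).

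Of the genes that set a cell's sensitivity to corticosteroids, Nr3c1 fell and Hsd11b2 rose. Nr3c2, MR itself, held 2498, 2717 and 3119 normalised reads with aldosterone, against 2365, 2823 and 2987 with vehicle, with overlapping groups (difference 0.01 ± 0.068, adjusted p = 0.98). Nr3c1, which encodes GR, held 1327, 1593 and 1726 with aldosterone, against 2146, 2280.1 and 2625 with vehicle, with all aldosterone libraries below all vehicle libraries (0.68 times the vehicle mean, difference -0.53 ± 0.064, adjusted p = 1.58e-05). Hsd11b2, the enzyme that inactivates glucocorticoids in aldosterone target cells, held 4159, 4409 and 5738 with aldosterone, against 1661, 1885 and 2263 with vehicle (2.45-fold, difference 1.24 ± 0.084, adjusted p = 7.09e-09). H6pd, which makes the cofactor for the opposite enzyme in the endoplasmic reticulum, differed 1.71-fold (0.70 ± 0.076, adjusted p = 3.62e-06). In the whole list of receptors, 11-beta-HSD enzymes and receptor chaperones 3 of 19 rose and 1 fell (15.8% and 5.26%, median -0.019); the third rise was Fkbp5.

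Genes known to be induced by corticosteroids in other tissues made the list with the largest share of calls. Of 40 tested, 29 rose (72.5%) and 0 fell, and the list's median difference was 0.64, where the median of all genes tested was -0.0047. The list was chosen with earlier results of these data known, so its direction is no independent evidence. Tsc22d3, which encodes the anti-inflammatory protein GILZ, held 2025, 2367 and 2704 normalised reads with aldosterone, against 402, 472 and 509 with vehicle (5.08-fold, difference 2.09 ± 0.07, adjusted p = 4.99e-13). Ddit4, an inhibitor of the growth kinase mTORC1, held 13169, 14462 and 18092 with aldosterone, against 3107, 3581 and 4348 with vehicle (4.06-fold, difference 1.99 ± 0.084, adjusted p = 1.05e-11). Among the 11 with no call, 3 singled out after their values were seen are often used as glucocorticoid markers: the phosphatase gene Dusp1 averaged 756 with aldosterone and 730.0 with vehicle (0.03 ± 0.12, adjusted p = 0.935), and the metallothionein genes Mt1 and Mt2 had differences of 0.28 ± 0.12 and 0.18 ± 0.15 (adjusted p = 0.234 and 0.624). All 11 lay between -0.17 and 0.30. The same list had 13 rises among 40 in GRKO organoids, where 1.12% of all genes tested rose, a GRKO count that moves with single libraries and settings as given with the GRKO comparison.

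**Figure D4:**
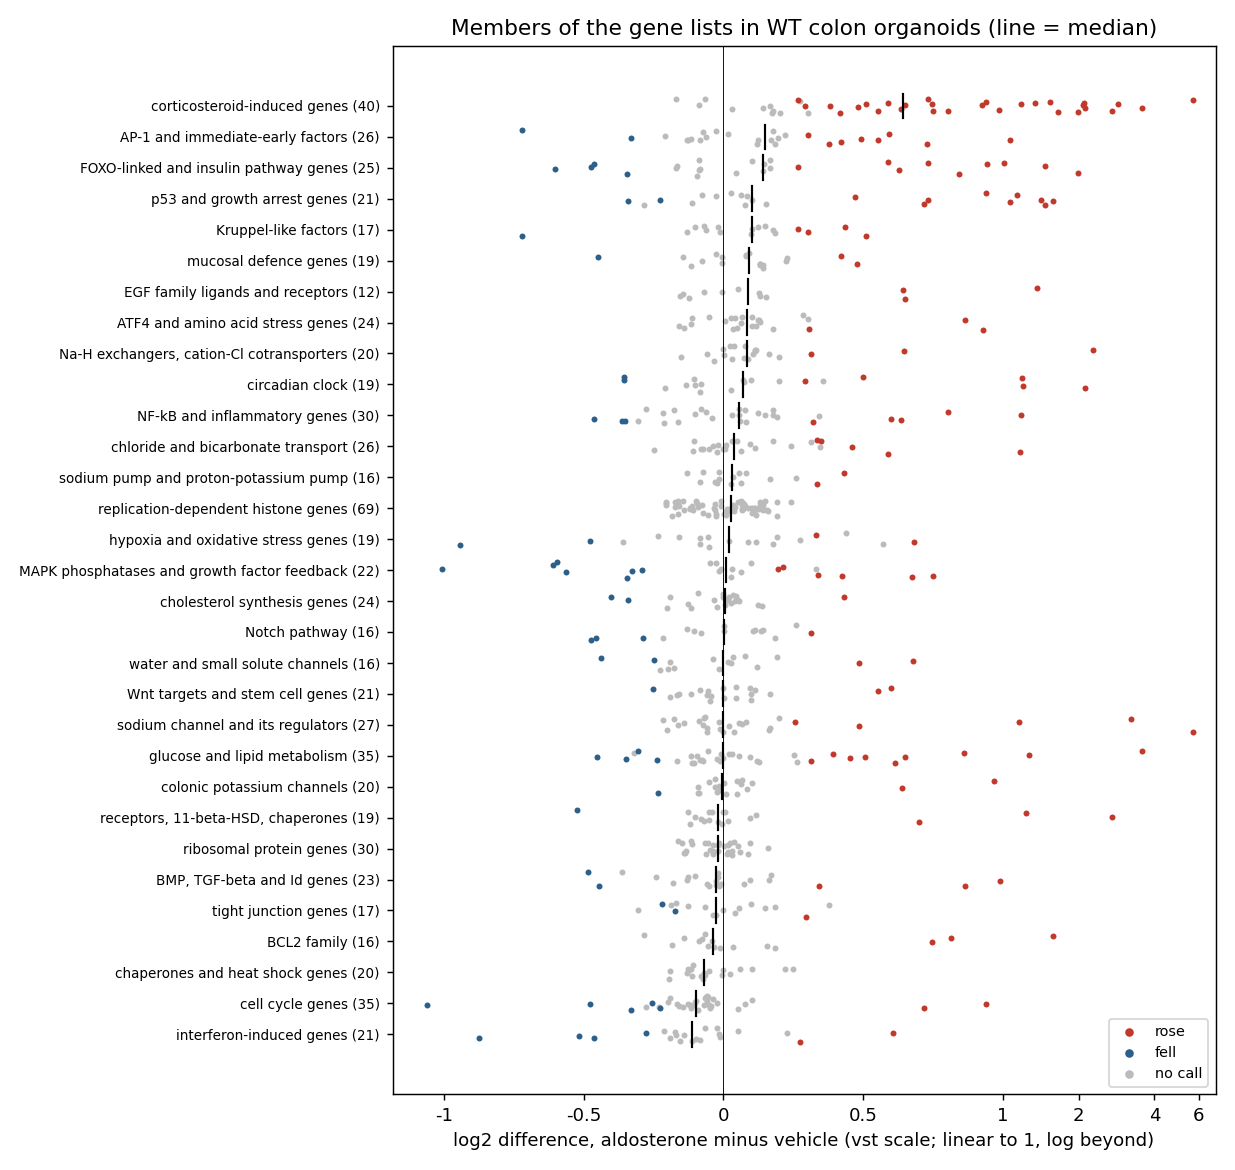
Log2 difference between aldosterone and vehicle (horizontal axis, vst scale, linear to 1 and logarithmic beyond) of every tested member of the gene lists, 1 row per list with the number tested, red for genes that rose, blue for genes that fell, grey for no call, black line at the list's median. The corticosteroid-induced genes lie furthest to the right with a median of 0.64, and histone, ribosomal protein and chaperone genes show no call.

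In the circadian clock list 5 of 19 genes rose and 2 fell (26.3% and 10.5%, median 0.071). Per1, a repressor of the clock loop, held 2609, 3059 and 3548 normalised reads with aldosterone, against 575, 598 and 710.2 with vehicle (5-fold, difference 2.13 ± 0.069, adjusted p = 3.36e-13). The repressors Cry2 and Nfil3 differed 2.46-fold (1.2 ± 0.07, adjusted p = 1.12e-09) and 2.91-fold (1.2 ± 0.072, adjusted p = 1.41e-09), and Ciart, also a repressor, 1.63-fold (0.50 ± 0.09, adjusted p = 0.00119). Dbp, an output transcription factor, fell to 209 normalised reads with aldosterone, against 296 with vehicle, with overlapping groups (-0.36 ± 0.079, adjusted p = 0.0072).

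Among genes of growth factor signalling, 3 ligand genes rose. Of 12 EGF family genes 3 rose (25%) and 0 fell (median 0.090). Tgfa, the ligand TGF-alpha, held 3574, 3831 and 4116 normalised reads with aldosterone, against 1297, 1431 and 1533 with vehicle (2.71-fold, difference 1.37 ± 0.054, adjusted p = 4.28e-12). Areg, amphiregulin, differed 1.63-fold (0.65 ± 0.093, adjusted p = 9.83e-05), and Ereg, epiregulin, 1.83-fold (0.64 ± 0.099, adjusted p = 0.000224). In the list of MAP kinase phosphatases and growth factor feedback 6 of 22 rose and 7 fell (27.3% and 31.8%, median 0.0091). Errfi1, an inhibitor of the EGF receptor, rose 1.73-fold (0.75 ± 0.071, adjusted p = 5.89e-07), as did Lrig3 (1.7-fold, 0.67 ± 0.069, adjusted p = 1.69e-06) and Spry1 (1.47-fold, 0.42 ± 0.064, adjusted p = 0.000173). Besides Phlda1, the list's falls included the phosphatase genes Dusp4 (0.623 times the vehicle mean, -0.61 ± 0.13, adjusted p = 0.00444) and Dusp5 (0.609 times, -0.60 ± 0.11, adjusted p = 0.00189) and the inhibitor Spry2 (636, 789 and 855 with aldosterone, against 1031, 1152 and 1296 with vehicle, -0.56 ± 0.073, adjusted p = 2.93e-05). Of 26 immediate-early and AP-1 factors 8 rose and 2 fell (30.8% and 7.69%, median 0.15). The rises were led by Ier5 (2.21-fold, 1.07 ± 0.11, adjusted p = 1.97e-06) and the stress factor Atf3 (1.85-fold, 0.73 ± 0.12, adjusted p = 0.000565), and Myc differed 1.54-fold (0.55 ± 0.094, adjusted p = 0.000615). Klf4, a factor of epithelial differentiation, held 5413, 6367 and 7153 with aldosterone, against 9383, 10233 and 12072 with vehicle (0.603 times, -0.72 ± 0.08, adjusted p = 4.9e-06). Among all 17 Kruppel-like factors 4 rose and 1 fell (median 0.10); Klf9 (1.48-fold, 0.51 ± 0.054, adjusted p = 2.53e-06) and Klf13 (1.37-fold, 0.44 ± 0.054, adjusted p = 1.81e-05) had the largest rises on the deposited log2 scale, which compresses genes with few reads. Klf15, with a mean of 7.22 normalised reads with aldosterone, against 1.88 with vehicle, stood 3.83-fold higher between means (0.27 ± 0.061, adjusted p = 0.00831).

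Of 21 genes of the p53 and growth arrest list 9 rose and 2 fell (42.9% and 9.52%, median 0.10). Pmaip1, a BH3-only promoter of cell death, held 2426, 2952 and 3319.9 normalised reads with aldosterone, against 750.2, 882 and 1009 with vehicle (3.26-fold, difference 1.58 ± 0.077, adjusted p = 7.29e-11). Sesn1, a stress-induced inhibitor of mTORC1, differed 3.41-fold (1.47 ± 0.078, adjusted p = 2.29e-10), Trp53inp1 2.82-fold (1.42 ± 0.08, adjusted p = 6.01e-10) and Gadd45b 2.62-fold (1.13 ± 0.098, adjusted p = 1.83e-07). In the BCL2 family 3 of 16 rose (18.8%) and 0 fell (median -0.036): besides Pmaip1 these were the survival genes Bcl2 (2.11-fold, 0.81 ± 0.063, adjusted p = 4.33e-08) and Bcl2l1 (1.72-fold, 0.75 ± 0.08, adjusted p = 2.86e-06), so 1 gene that promotes cell death and 2 that oppose it rose. Of 35 cell cycle genes 2 rose and 5 fell (5.71% and 14.3%, median -0.098). Cdkn1a, the inhibitor p21, held 13364, 14818 and 17782 with aldosterone, against 6600.1, 7969.7 and 8937 with vehicle (1.93-fold, 0.94 ± 0.084, adjusted p = 2.79e-07), in the direction opposite to the inhibitor gene Cdkn2b. The S phase factors E2f2 (0.686 times, -0.48 ± 0.081, adjusted p = 0.000581) and Ccne1 (0.715 times, -0.33 ± 0.06, adjusted p = 0.00119) fell. Of 25 FOXO-linked and insulin pathway genes 9 rose and 4 fell (36.0% and 16.0%, median 0.14). Pik3r1, the regulatory subunit of PI3 kinase, differed 1.96-fold (0.94 ± 0.059, adjusted p = 2.73e-09), while Trib1, a pseudokinase, was at 0.629 times the vehicle mean (-0.60 ± 0.066, adjusted p = 4.28e-06).

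Fuel metabolism gave 9 rises and 4 falls among 35 genes (25.7% and 11.4%, median -0.0027). The rises were led, after Angptl4, by Ppara, the fatty acid receptor (1643, 1764 and 2008 with aldosterone, against 546, 678 and 774 with vehicle, 1.27 ± 0.073, adjusted p = 9.37e-10), by its coactivator gene Ppargc1a (2.04-fold, 0.86 ± 0.067, adjusted p = 5e-08) and by Pdk4, which holds pyruvate back from oxidation (2.3-fold, 0.65 ± 0.079, adjusted p = 1.46e-05). Falls included Plin2, a lipid droplet coat protein gene (0.72 times, -0.45 ± 0.048, adjusted p = 2.91e-06), the fatty acid elongase Elovl6 (0.776 times, -0.35 ± 0.049, adjusted p = 7.22e-05) and Pparg (0.8 times, -0.31 ± 0.052, adjusted p = 0.000587). Of 24 cholesterol synthesis genes 1 rose and 2 fell (median 0.0063). In the hypoxia and oxidative stress list 2 of 19 rose and 2 fell (median 0.020); Gclc, the first enzyme of glutathione synthesis, differed 1.62-fold (0.68 ± 0.056, adjusted p = 8.49e-08). Of 24 ATF4-linked genes 3 rose and 0 fell (median 0.085), among them Vldlr, a lipoprotein receptor (2.02-fold, 0.93 ± 0.11, adjusted p = 9.38e-06).

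Inflammatory genes moved both ways, with 5 rises and 3 falls among 30 (16.7% and 10.0%, median 0.055). Zfp36, which speeds the decay of cytokine mRNAs, held 2635, 2991 and 4459 normalised reads with aldosterone, against 1109, 1334 and 1539 with vehicle (2.4-fold, 1.18 ± 0.1, adjusted p = 2.31e-07). Nfkbia, the inhibitor of NF-kB, differed 1.6-fold (0.64 ± 0.079, adjusted p = 1.78e-05), and Lcn2, an iron-sequestering defence protein, averaged 33.7 with aldosterone, against 1.88 with vehicle (0.80 ± 0.084, adjusted p = 2.12e-06). Tnf (0.534 times, -0.46 ± 0.087, adjusted p = 0.00167) and the adhesion molecule gene Icam1 (0.559 times, -0.36 ± 0.065, adjusted p = 0.00105) fell at low levels of 63.5 and 43.1 normalised reads with aldosterone, against 119 and 77 with vehicle. Of 21 interferon-induced genes 2 rose and 4 fell (9.52% and 19%, median -0.11). Besides Irf1, Oasl1 (0.649 times, -0.52 ± 0.1, adjusted p = 0.00308) and Ifit1 (0.45 times, -0.46 ± 0.075, adjusted p = 0.000391) fell, while Usp18, which dampens interferon signalling, rose 3.33-fold (0.61 ± 0.057, adjusted p = 6.23e-07).

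Among pathways that pattern the crypt, calls went both ways in each list. Of 21 Wnt targets and stem cell genes 2 rose and 1 fell (9.52% and 4.76%, median -0.0017): Rnf43, a ligase that removes Wnt receptors, differed 1.57-fold (0.60 ± 0.068, adjusted p = 6.7e-06) and the receptor gene Lgr4 fell by 0.25 ± 0.053 (adjusted p = 0.00443). Of 16 Notch pathway genes 1 rose and 3 fell (6.25% and 18.8%, median 0.0018). The falls were the ligand gene Jag1 and the targets Hes1 and Nrarp, at 0.795, 0.691 and 0.689 times their vehicle means (adjusted p = 0.000422, 0.000159 and 0.00118), and Notch1 itself rose 1.28-fold (0.31 ± 0.067, adjusted p = 0.00555). Of 23 BMP and TGF-beta genes 3 rose and 2 fell (13% and 8.7%, median -0.026), with Ccn2, a matricellular protein gene, 2.42-fold higher (0.99 ± 0.11, adjusted p = 4.99e-06), the stress cytokine gene Gdf15 2.3-fold higher (0.86 ± 0.15, adjusted p = 0.000557) and the inhibitor Smad6 at 0.626 times the vehicle mean (-0.49 ± 0.076, adjusted p = 0.000273). In the mucosal defence list 2 of 19 rose (Lypd8, Muc3) and 1 fell (Duoxa2), each lost without some single libraries (median 0.092).

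Several groups gave no call by limma. Of 69 replication-dependent histone genes 0 passed (2 at an unadjusted p under 0.05, 0 by voom), of 30 ribosomal protein genes 0 passed (0 at an unadjusted p under 0.05, 0 by voom) and of 20 chaperone and heat shock genes 0 passed (4 at an unadjusted p under 0.05, 1 by voom, 1 by the p-values of the authors' deposited table). Their medians were 0.026, -0.019 and -0.070. Among cell type markers, epithelial genes were abundant and markers of other tissues were not. The 8 pan-epithelial markers summed to 310692 to 384717 normalised reads with aldosterone, against 302892 to 351618 with vehicle, and 1 of them, the transcription factor gene Cdx2, fell (0.769 times, -0.37 ± 0.074, adjusted p = 0.00263). Markers of mature colonocytes gave 3 rises and 1 fall among 12, all but Slc37a2 lost without some single libraries; Slc37a2 is a sugar phosphate transporter gene (1875, 2799 and 4337 with aldosterone, against 857, 1334 and 2058 with vehicle, 1.11 ± 0.19, adjusted p = 0.000551). Markers of goblet cells (10), enteroendocrine cells (9), tuft cells (7), Paneth cells (6) and proliferating cells (7) gave 0 calls by limma and 0 by voom, with 4 genes in all 5 lists at an unadjusted p under 0.05. Their median differences, in this order, were 0.14, 0.10, 0.048, 0.020 and -0.10. All 7 proliferation markers had small negative differences, from -0.20 to -0.046. The p-values of the authors' deposited table called 1 enteroendocrine and 1 proliferation marker. Stem cell markers gave 1 fall among 8, Cdca7, which did not pass without WT vehicle replicate 6 (adjusted p = 0.0587). In such bulk samples a change in the number of cells of a type and a change in RNA per cell cannot be told apart. Of 7 small intestinal enterocyte markers 2 rose, Slc5a1 and Apoa1, the second with an adjusted p of 0.0699 without WT aldosterone replicate 2. The 8 immune markers summed to 105.5 to 156 normalised reads with aldosterone, against 106 to 142 with vehicle, and the T cell marker Cd3e averaged 0.069 normalised reads over the 12 libraries. The 8 mesenchymal markers summed to 141 to 826 with aldosterone, against 146 to 197 with vehicle, and 0 of 8 were called by limma (0 at an unadjusted p under 0.05, 0 of 2 testable by voom), while 4 of the 8 averaged under 10 normalised reads. The part of mesenchymal reads in the results was not tested gene by gene, and the counts without aldosterone libraries 4 and 6 are given above.

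The response was then set beside that of GRKO organoids, whose table was normalised separately. As a check of the label, Nr3c1 took 13.8 to 17.5 CPM, that is, per M exon reads (Rn45s left out) in 5 aldosterone and 18 to 21.6 in 5 vehicle GRKO libraries, against 61.8 to 82.7 in 6 aldosterone and 103 to 127 in 6 vehicle WT libraries. Every GRKO library thus held fewer Nr3c1 reads than every WT library, though not 0. The headers of the GRKO libraries read GRKD where the sample titles read GRKO, and the labels do not describe how Nr3c1 was altered. Within each treatment Nr3c2 reads were higher in GRKO, with 151 to 183 CPM with aldosterone and 145 to 180 with vehicle. The WT libraries held 118 to 147 CPM of Nr3c2 with aldosterone and 113 to 144 with vehicle. Which receptor gene goes with the differences in response below was not tested. In GRKO organoids aldosterone raised 224 genes and lowered 39 of 20050 (1.12% and 0.195%), a count that rests on single libraries: without GRKO vehicle replicate 1 it was 970 genes in all, without GRKO vehicle replicate 2 it was 174 and without GRKO aldosterone replicate 3 it was 171. With a replicate block it was 19 genes, all higher, and by the p-values of the authors' deposited table it was 468. GRKO vehicle library 5 and aldosterone library 6 had no partner of the same number, so they add nothing to the blocked difference. The overlaps with WT use the count of 263. Of the 854 genes raised in WT organoids, 189 were also raised in GRKO organoids, which is 22.1% of the WT list and 84.4% of the GRKO list. Of the 476 lowered in WT organoids, 16 were also lowered in GRKO.

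The difference between both responses was tested as a limma interaction over 22 libraries and 19375 genes, and 501 genes passed (2.59%), of which 363 had the more positive response in WT (1.87%) and 138 the more negative (0.712%). Among the 849 genes raised in WT and tested in both lines, 348 differed, each with the smaller response in GRKO, and their median difference over all 849 was 0.42 in WT and 0.12 in GRKO organoids. Among the 476 lowered in WT, 120 differed, likewise each with the smaller response in GRKO (medians -0.31 in WT and -0.064 in GRKO). The genes were chosen by their WT response, in the same libraries that enter the interaction. A passing difference among them was therefore likely in advance to be a smaller response in GRKO. These counts, their direction and the medians are a description. The lowest possible value was 5.93 on the scale of the WT table and 6.65 on that of the GRKO table, so weak genes are compressed more in GRKO, and limma voom on the recovered reads, which has no such floor, was used beside it (425 genes, 411 of them among the 501).

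Icosl had a difference of 2.09 ± 0.062 in WT and -0.05 ± 0.057 in GRKO organoids (WT minus GRKO 2.13 ± 0.084, adjusted p = 7.79e-16). Angptl4 kept a rise in GRKO that was far smaller, with 3.59 ± 0.075 in WT and 0.86 ± 0.051 in GRKO (WT minus GRKO 2.73 ± 0.095, adjusted p = 7.18e-17). Between mean normalised reads Angptl4 rose 22.6-fold in WT and 2.76-fold in GRKO. Usp2 had 1.16 ± 0.089 in WT and 0.17 ± 0.088 in GRKO, where it did not pass (adjusted p = 0.562; WT minus GRKO 0.99 ± 0.13, adjusted p = 1.34e-05). Sgk1 rose 24-fold in GRKO, beside 67.8-fold in WT (WT minus GRKO 1.63 ± 0.11, adjusted p = 1.25e-10). Fkbp5, Per1 and Tsc22d3 also rose in GRKO, by 1.92, 1.37 and 1.2, and each differed from WT (adjusted p = 4.83e-08, 1.76e-05 and 9.53e-07). By voom on reads their GRKO rises were 2.06, 1.6 and 1.51. Slc9a3 had 2.28 ± 0.071 in WT and 1.95 ± 0.081 in GRKO, a difference between lines of 0.33 ± 0.11 that did not pass (adjusted p = 0.164), nor did those of Scnn1b (0.10 ± 0.11, adjusted p = 0.804) and Atp1b1 (0.11 ± 0.073, adjusted p = 0.622). For Scnn1g the interaction passed on the deposited scale (0.77 ± 0.15, adjusted p = 0.003) and not on reads (0.91 ± 0.54, adjusted p = 0.467). Zbtb16 had a WT minus GRKO difference of 1.26 ± 0.14 on the deposited scale (adjusted p = 8.02e-07) and 1.5 ± 0.53 by voom on reads (adjusted p = 0.147). Hsd11b2 had 0.51 ± 0.13 (adjusted p = 0.025) and 0.48 ± 0.14 by voom (adjusted p = 0.0677), and Nr3c1 -0.32 ± 0.087 (adjusted p = 0.0417) and -0.26 ± 0.11 by voom (adjusted p = 0.281). Arhgap20 had -0.68 ± 0.13 (adjusted p = 0.00129) and -0.96 ± 0.28 by voom (adjusted p = 0.0587). In these 5 genes the difference by voom kept its direction and had a larger SE, and the call was lost. Of the largest falls, Cdkn2b had -1.16 ± 0.078 in WT and -0.24 ± 0.064 in GRKO (WT minus GRKO -0.93 ± 0.11, adjusted p = 1.72e-06), and Phlda1 -1.02 ± 0.1 in WT and -0.18 ± 0.052 in GRKO (-0.84 ± 0.13, adjusted p = 0.000141). In the list of ENaC and its regulators 3 of 27 genes had a response that differed between lines, in that of the pumps 0 of 16, and in that of corticosteroid-induced genes 24 of 40. Among all genes tested in both lines 2.59% differed. The last list was chosen with earlier results of these data known, and 29 of its 40 genes rose in WT. Its count is therefore a description.

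**Figure D5:**
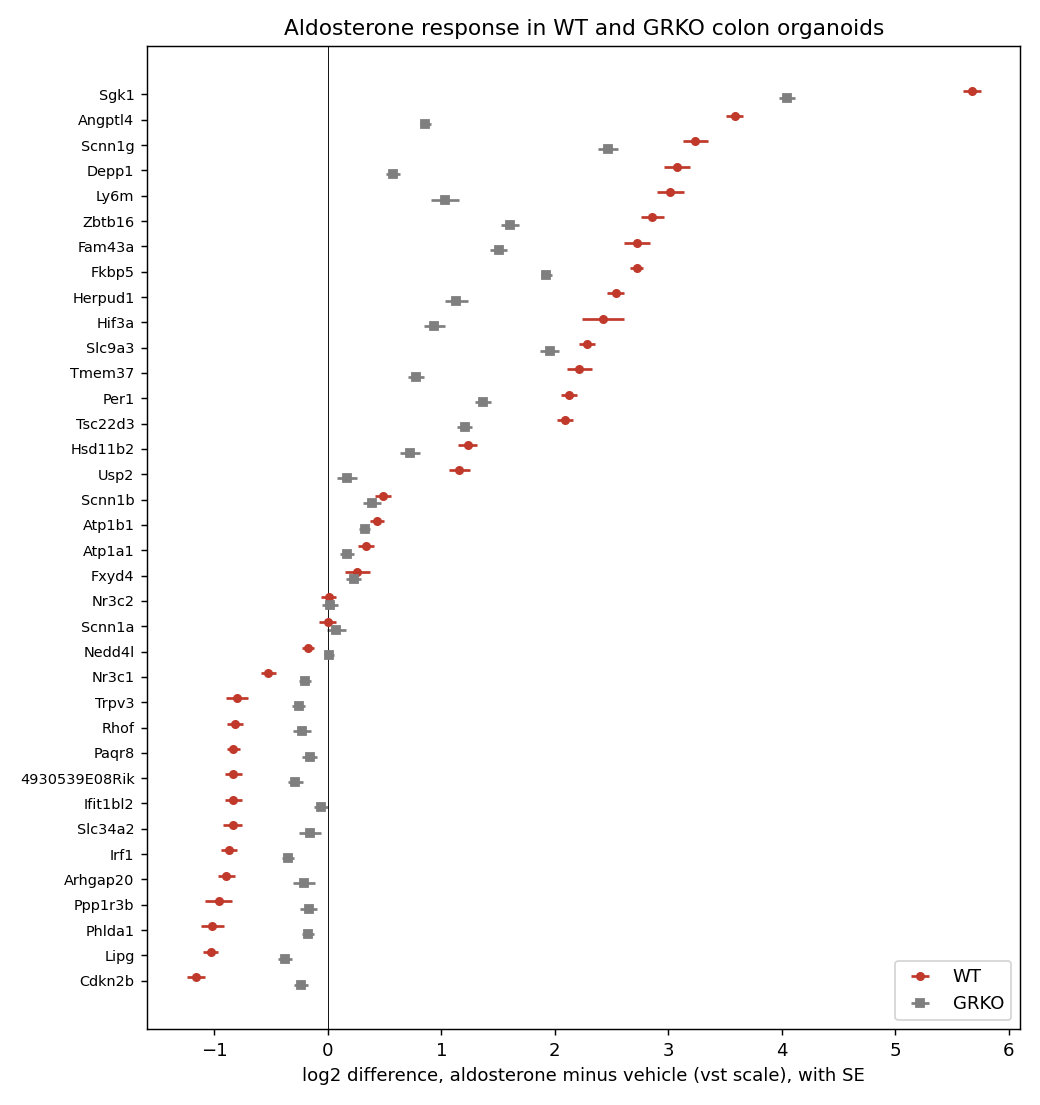
Log2 difference between aldosterone and vehicle with its SE (horizontal axis, vst scale) in WT organoids (red circles, upper) and GRKO organoids (grey squares, lower) for the 24 genes with the largest WT changes and the 16 genes given whatever their values. Sgk1, Scnn1g, Fkbp5 and Slc9a3 keep large rises in GRKO organoids, while Angptl4 and Depp1 lie near 0.86 and 0.57 there. Between mean normalised reads, Angptl4 and Depp1 rose 2.76-fold and 1.91-fold in GRKO.

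Genes that rose often lay beside each other in the genome. Of the genes that rose, 31.0% had an adjacent tested gene that also rose, where 8.09% of all tested genes had such a neighbour. For falls the shares were 13.4% and 4.59%. An example on chromosome 4 (mm10) is the run of Slc25a33, Spsb1 and H6pd, which lie between 149744036 and 150009023 and all rose. Spsb1, an adaptor of a ubiquitin ligase, averaged 751 normalised reads with aldosterone, against 102 with vehicle (2.07 ± 0.07, adjusted p = 4.99e-13), and the mitochondrial pyrimidine carrier gene Slc25a33 931 with aldosterone, against 179 with vehicle (1.86 ± 0.066, adjusted p = 9.21e-13). Among lowered genes Cyp2c55, Cyp2c65 and Cyp2c66, drug-metabolising enzyme genes on chromosome 19, lay side by side (39007019 to 39186756). The counting command in the file header names no strand option, so reads of overlapping or antisense neighbours, and of close copies such as the Cyp2c genes, cannot be told apart. These runs were picked after the values were seen.

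Some genes were read with hormone alone. In 11 of the genes that rose, no vehicle library held a read, and in 4 of those that fell no aldosterone library did. Fam107a, an actin-binding protein gene and known glucocorticoid target, had 350 reads over the 6 aldosterone libraries, on average 57.7 normalised reads, and 0 over the vehicle libraries, at least 120-fold higher when set against a floor of 3 reads over the vehicle group. In the other 14 genes, apart from Slc12a3, the group with reads averaged 0.813 to 5.48 normalised reads, so that their size cannot be read closely.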

How the data were processed

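The data are 2 deposited tables of colon organoid RNA libraries, 6 with aldosterone and 6 with vehicle from WT organoids and 5 of each from GRKO organoids. Per the file headers, HOMER counted exon reads per gene (mm10, 1 transcript per gene) and the authors deposited them as log2 values after a variance-stabilizing transformation made within each table, together with log2 fold changes and p-values of their own test. The submitters' processing notes name bcl2fastq 2.20, Trimmomatic, STAR 2.7.0f, Bowtie2 2.3.4.1 and HOMER 4.10.4 without saying which step used which. Sequences came from RefSeq tables (GRCm38.p6), in which 114 of the 148 named genes had a promoter.

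The transformation was reversed exactly, and every value gave a whole number of reads within a tolerance of 1e-05, which showed the scaling factor of each library. Tests ran on the deposited log2 values with limma 3.58.1 (R 4.3.3, trended variance, Benjamini-Hochberg adjusted p under 0.05) over all 20196 varying WT genes, 20050 GRKO genes and, for the difference between responses, 19375 genes. Python 3.11.15 and matplotlib 3.10.9 were used for sequences and figures. The fits were tested on simulated reads. An alternative on the recovered reads, limma voom with at least 10 reads in at least 6 WT libraries, was added after the values were seen. The other alternatives left out single libraries, blocked on replicate number, filtered low genes, centred libraries, changed the variance model, weighted libraries or used the authors' p-values. Totals of the WT libraries were 27.5 to 37.5 M reads. Floors cover counting error only, and each SE reflects the scatter between libraries.

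Members, gene lists and tests were chosen with earlier results of these data known. Named genes were the 12 largest differences in each direction among called genes whose groups did not overlap, the 6 smallest adjusted p-values in each direction, up to 4 called members of each list per direction, and 16 genes given whatever their values. The labels do not say whether replicate numbers pair the libraries, and the main tests treated them as unpaired. The sensitivity text gives the counts with a replicate block. The tables of other cell lines and the ChIP samples were not used here, and a few genes that the rule names are not reported here.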

Additional observations from a re-analysis of the deposited data

Results flagged for a closer look

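Among 78 combinations of a gene and a group of 6 WT libraries, 4 held a library far from the other 5, where chance alone would mark about 1 in 20. Scnn1g stood at 6.70 on the log2 scale in vehicle library 4 (17.8 normalised reads, against 4.52 to 7.04 in the other vehicle libraries), still below every aldosterone library. Zbtb16 stood at 9.70 in aldosterone library 4 (712 normalised reads, against 408 to 487). Fkbp5 stood at 10.92 in vehicle library 1 (1822 normalised reads, against 2035 to 2168), and Nr3c1 at 11.42 in vehicle library 2 (2625 normalised reads, against 2146 to 2311).

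The response to aldosterone differed between WT and GRKO organoids in 501 genes by the interaction test. Values are the WT minus the GRKO difference on the log2 scale. Genes raised in WT with the more positive response there were Sgk1 (1.63), Angptl4 (2.73), Scnn1g (0.77), Depp1 (2.51), Ly6m (1.99), Zbtb16 (1.26), Fam43a (1.22) and Fkbp5 (0.80). Further such genes were Herpud1 (1.41), Hif3a (1.49), Tmem37 (1.44), Tsc22d3 (0.89), Per1 (0.76), Usp2 (0.99) and Hsd11b2 (0.51). Genes lowered in WT with the more negative response there were Cdkn2b (-0.93), Lipg (-0.66), Phlda1 (-0.84), Ppp1r3b (-0.79), Arhgap20 (-0.68), Irf1 (-0.52) and Slc34a2 (-0.68). The others in this direction were Ifit1bl2 (-0.77), 4930539E08Rik (-0.55), Paqr8 (-0.67), Rhof (-0.59), Trpv3 (-0.54) and Nr3c1 (-0.32). By voom on the recovered reads 5 of these calls were lost, those of Scnn1g (0.91 ± 0.54, with SE), Zbtb16 (1.5 ± 0.53), Hsd11b2 (0.48 ± 0.14), Nr3c1 (-0.26 ± 0.11) and Arhgap20 (-0.96 ± 0.28), each difference keeping its direction.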

How the results depend on the processing

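The count of 1330 WT genes past the threshold became 2010 with array quality weights (1184 higher, 826 lower) and lay between 1127 (without WT vehicle replicate 2) and 1543 (without WT aldosterone replicate 4) when single libraries were left out. The GRKO count of 263 became 19 with the replicate block and 468 by the authors' deposited adjusted p-values, and lay between 171 and 970 without single libraries. In that block GRKO vehicle library 5 and aldosterone library 6 had no partner of the same number. The count of 501 for the difference between lines lay between 406 and 649 without single libraries. Scnn1a, at -0.0022 and not called, was 0.0209 with array quality weights and 0.0499 without aldosterone libraries 4 and 6, and -0.0397 to 0.034 without single libraries. Nr3c2, at 0.0069 and also not called, was -0.0124 with array quality weights, -0.0116 without both libraries numbered 3, -0.0107 without aldosterone libraries 4 and 6, and -0.0328 to 0.0329 without single libraries.

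Same-numbered WT libraries deviated from their group means with correlations of -0.27 to 0.64, and for 2 of 6 numbers the best match was the own number. The labels do not say whether equal numbers mark a pair, and these correlations cannot decide it. With the replicate block 1614 WT genes passed (992 higher, 622 lower) and 414 differed between lines. The 414 rest on a block in which GRKO vehicle library 5 and aldosterone library 6 had no partner. The remaining settings gave 1248 to 1385 WT genes, and the authors' p-values 1645. Of the 144 named genes that were called, 20 lost the call when some single library was left out: Clcn2, Cldn12, F11r, Aqp8, Slc5a8, Dusp7, Fosl1, Nos2, Ifit3, Id4, Klf5, Plk2, Lpin2, Ppp1r15a, Lypd8, Muc3, Duoxa2, Ceacam1, Cdca7 and Apoa1. The replicate block ended the calls of Clcn2, Ifit3 and Id4, and leaving out aldosterone libraries 4 and 6 together ended 11, of which Nr1d1 is not among the 20. Of the 144 genes 0 changed direction under any setting.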

Other observations

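Genes of bile acid handling were not among the lists and were looked up after their values were seen. Of 12 tested, 3 rose and 2 fell, where 4.23% and 2.36% of all genes tested did. Nr1h4, the bile acid receptor FXR, held 2396, 2707 and 3030.0 normalised reads with aldosterone, against 1052, 1183 and 1253 with vehicle (2.32-fold, difference 1.13 ± 0.06, limma adjusted p = 2.29e-10). Slc10a2, the ileal bile acid uptake transporter, averaged 1751 with aldosterone and 545 with vehicle (1.51 ± 0.096, adjusted p = 3.05e-09), and Cyp27a1, a sterol hydroxylase gene, 149 with aldosterone and 19.9 with vehicle (1.28 ± 0.094, adjusted p = 2.1e-08). Fgf15, an intestinal hormone gene that FXR is known to induce, was lower, at 10.8 with aldosterone against 56.7 with vehicle (-0.75 ± 0.072, adjusted p = 7.96e-07), as was the export pump gene Abcc2 (-0.62 ± 0.085, adjusted p = 6.22e-05).

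Among glycosylation genes, likewise chosen after their values were seen, 3 of 5 Gcnt glycosyltransferase genes rose (Gcnt1 2.09-fold, Gcnt2 2.39-fold, Gcnt3 1.91-fold) and Gcnt4 was at 0.622 times its vehicle mean (limma adjusted p = 3.16e-07, 5.33e-09, 7.77e-09 and 7.24e-05). The fucosyltransferase gene Fut4 rose 3.13-fold (1.3 ± 0.068, adjusted p = 2.11e-10), 1 of 8 Fut genes tested. For these counts and those below, 4.23% of all genes tested rose and 2.36% fell. The Hox and ephrin genes were also chosen after their values were seen. Of 9 Hoxb patterning genes 4 fell, against 1 of 11 Hoxa genes, 1 of 9 Hoxd genes and 2.36% of all genes tested. In each of these 4 Hoxb genes the aldosterone and vehicle groups overlapped, and Hoxb13, not called, had a positive difference (0.33 ± 0.12). Among the Hoxb falls Hoxb8 averaged 301 with aldosterone and 489 with vehicle (-0.54 ± 0.095, adjusted p = 0.000929). Of 8 ephrin genes 3 fell and 1 rose, the fall of Efnb2 being -0.65 ± 0.062 (adjusted p = 7.25e-07).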
